A study of Mus musculus with 38 samples.

Results

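Of 22798 genes tested, 62 were called lower and 0 higher at the middle of the dark phase (ZT18) than at lights off (ZT12). The comparison used preparations of WT oligodendrocyte precursor cells (OPCs). The genes that fell were led by immediate early transcription factors such as Atf3 and Egr3, by inflammatory ligands such as Ccl4 and Tnf, and by brakes on MAP kinase and NF-kB signalling such as Dusp5 and Tnfaip3. Per1 was the 1 core clock gene among them. OPC identity, cell cycle and myelin genes had 0 calls. The preparations also held microglial RNA, and which cells held the called transcripts was not tested. All 62 calls were lost when the libraries with a low share of ribosomal RNA were left out. Every one of the 62 still had a lower fitted level at ZT18, which their choice with the remaining libraries included had favoured.

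OPCs are the dividing glial cells that mature into myelinating oligodendrocytes. The comparison covers 10 of the 38 libraries of the series, 4 WT libraries at ZT18 against 6 WT libraries at ZT12, chosen by genotype and time alone, and all genes. Zeitgeber time (ZT) counts hours from lights on, under a cycle of 12 h light and 12 h dark. WT mice were NG2:Cre-;Bmal1fl/fl, so they carried floxed Bmal1 alleles and no Cre, and they were 6 to 7 days old. Each library pooled the forebrain OPCs of 2 mice, purified by panning: unwanted microglia and endothelial cells were first caught on other plates, and the OPCs then bound an antibody against PDGFRA. No drug was given. The KO libraries used for comparison, 4 at ZT12 and 4 at ZT18, came from NG2:Cre+;Bmal1fl/fl mice. There the promoter of NG2 (Cspg4) drives Cre, which removes the part of Bmal1 that encodes the DNA-binding domain. No group with Cre and intact Bmal1 was analysed here, so an effect of Cre itself cannot be told apart from that of Bmal1.

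Immediate early genes are switched on within minutes of a stimulus, without new protein synthesis, through MAP kinase, calcium, cyclic AMP and NF-kB signalling. Many of their products shut the same signals down again: dual-specificity phosphatases inactivate MAP kinases, and TNFAIP3 and cytoplasmic IkB proteins such as NFKBIA restrain NF-kB. In the circadian clock, BMAL1 with CLOCK binds E-boxes and drives the Per, Cry and Nr1d genes, whose proteins feed back on it. Per1 also responds to stimuli directly and so belongs to both systems.

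Library totals ran from 21446693 to 38135044 counts at ZT12 and from 24886768 to 28242600 at ZT18. Ribosomal RNA genes took 0.124 to 0.132% of the counts in ZT12 replicates 4, 5 and 6, and 0.767 to 1.07% in the other 7 libraries. In the whole series 8 libraries lay at 0.124 to 0.309% and 30 at 0.47 to 1.4%. These 8 low-rRNA libraries were ZT12 replicates 4 to 6 of WT, 1 KO library at ZT6 and all 4 KO libraries at ZT18. The labels state that both sexes were pooled, yet ZT12 replicates 1 to 4 held RNA of Xist and none of the Y-linked genes, and ZT18 replicates 2 and 4 held Y-linked RNA with almost no Xist. Pdgfra, the receptor used to purify the cells, stood at 4086 ± 317 CPM (mean ± SD, n = 6) at ZT12 and 4082 ± 341 (n = 4) at ZT18. CPM is a gene's count scaled to a common library size, and is not scaled to gene length. Microglial RNA was also present, with Cx3cr1 at 1307 ± 251 and 1358 ± 555 CPM.

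A gene was called when its p-value from edgeR's quasi-likelihood test, adjusted by Benjamini-Hochberg over all genes tested, was below 0.05. Lower at ZT18 were 62 genes, 0.272% of those tested, and higher were 0 (0%). At an unadjusted p below 0.05 there were 1407 genes, 903 lower and 504 higher, and the smallest adjusted p of a higher gene was 0.121. The fitted falls ran from 1.3-fold to 6.85-fold, with 45 genes over 2-fold and 9 over 4-fold. The median log2 fold change was -1.37 over the called genes and -0.01 over all genes. Over all genes, 51.3% had a negative fold change. For 48 of the 62, every ZT18 library lay below every ZT12 library, a separation that 1.13% of all genes showed in this direction. The call was made on these same libraries and favours such a separation, so the count is a description.

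**Figure D1:**
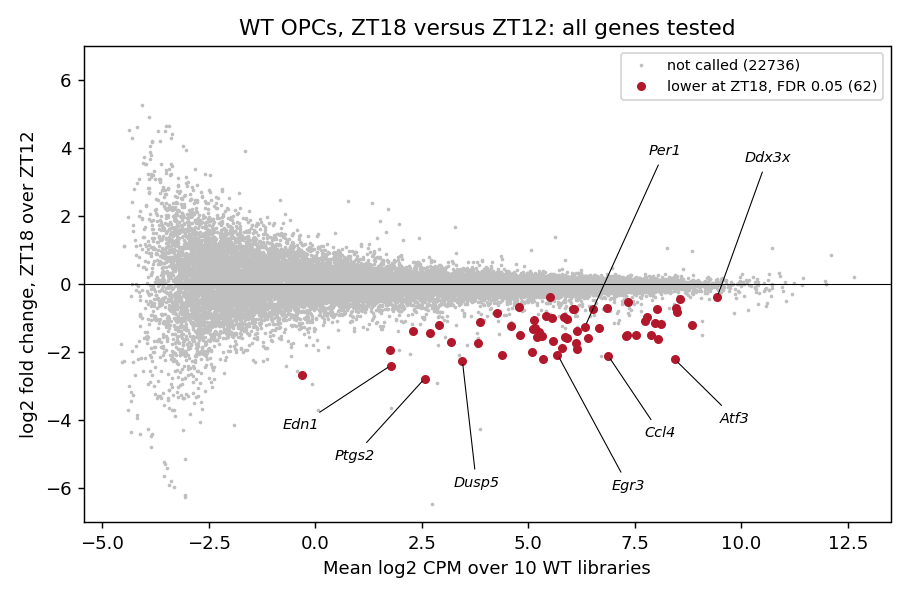
Fold change against level for all 22798 genes tested; the x axis is the mean log2 CPM over the 10 WT libraries and the y axis the log2 fold change of ZT18 over ZT12. Red points are the 62 called genes, all below 0, and grey points are the genes not called; genes of low level scatter widely in both directions without being called.

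Immediate early genes, most of them transcription factors, were the list with the most calls. Of 28 tested, all 28 had a lower fitted level at ZT18 and 13 were called, against 51.3% and 0.272% of all genes. The list median was -1.13 on the log2 scale against -0.01 over all genes. Without the low-rRNA libraries 27 were negative, 0 were called and the median was -0.77. Atf3, a stress-induced member of the ATF/CREB family, ranged at ZT12 from 324 to 1023 CPM with a median of 676, and stood at 166, 102, 211 and 116 CPM at ZT18. The groups did not overlap, and the highest ZT12 values, 815 to 1023 CPM, were those of the low-rRNA replicates 4 to 6. The log2 fold change was -2.21 ± 0.33 (SE), a 4.64-fold fall, with an adjusted p of 0.00157 in edgeR's quasi-likelihood test, the smallest of all genes.

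Egr2, Egr3 and Egr4 are zinc-finger factors induced by growth factor and calcium signals. Egr3 ranged from 54.7 to 168 CPM at ZT12 (median 92.4) and stood at 19.5, 11.1, 42.2 and 21.9 CPM at ZT18, a log2 fold change of -2.07 ± 0.36 (SE). Egr2 ranged from 50.1 to 168 CPM (median 84.1) against 41.5, 25.6, 38.6 and 25.6 CPM, a change of -1.56 ± 0.27 (SE). Neither gene overlapped between the times, and both had an adjusted p of 0.00328 in edgeR's quasi-likelihood test. Egr4 was scarce, at 1.98 to 10.1 CPM (median 5.66) against 1.71, 0.935, 1.58 and 2.22 CPM, and its lowest ZT12 library overlapped the ZT18 range. Maff, a small MAF factor that pairs with other bZIP proteins, ranged from 31.7 to 109 CPM (median 57.6) and fell to 13, 13.2, 19.97 and 17.8 CPM. Its log2 fold change was -1.99 ± 0.34 (SE), with no overlap.

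The best-known members of the list were not called. Fos, a subunit of AP-1, ranged from 709 to 2562 CPM at ZT12 (median 1848) and stood at 1317, 1145, 1143 and 887 CPM at ZT18. Its log2 fold change of -0.58 ± 0.29 (SE) had an adjusted p of 0.809 in edgeR's quasi-likelihood test. Jun stood at -0.56 ± 0.27 and Egr1 at -0.49 ± 0.29 (log2 fold change ± SE), with adjusted p-values of 0.779 and 0.884 in the same test. Without the low-rRNA libraries the changes of Fos, Jun and Egr1 were -0.06, -0.07 and 0.07 on the log2 scale; ZT12 replicate 1, which is not one of them, was high for all 3 genes. The called members outside the naming rule, picked out here after their values were seen, were Nr4a1, Klf2, Klf4, Klf6, Klf10, Btg2 and Jund, with log2 fold changes from -1.53 to -0.97. Dusp1, also on this list, is described with the phosphatases.

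**Figure D2:**
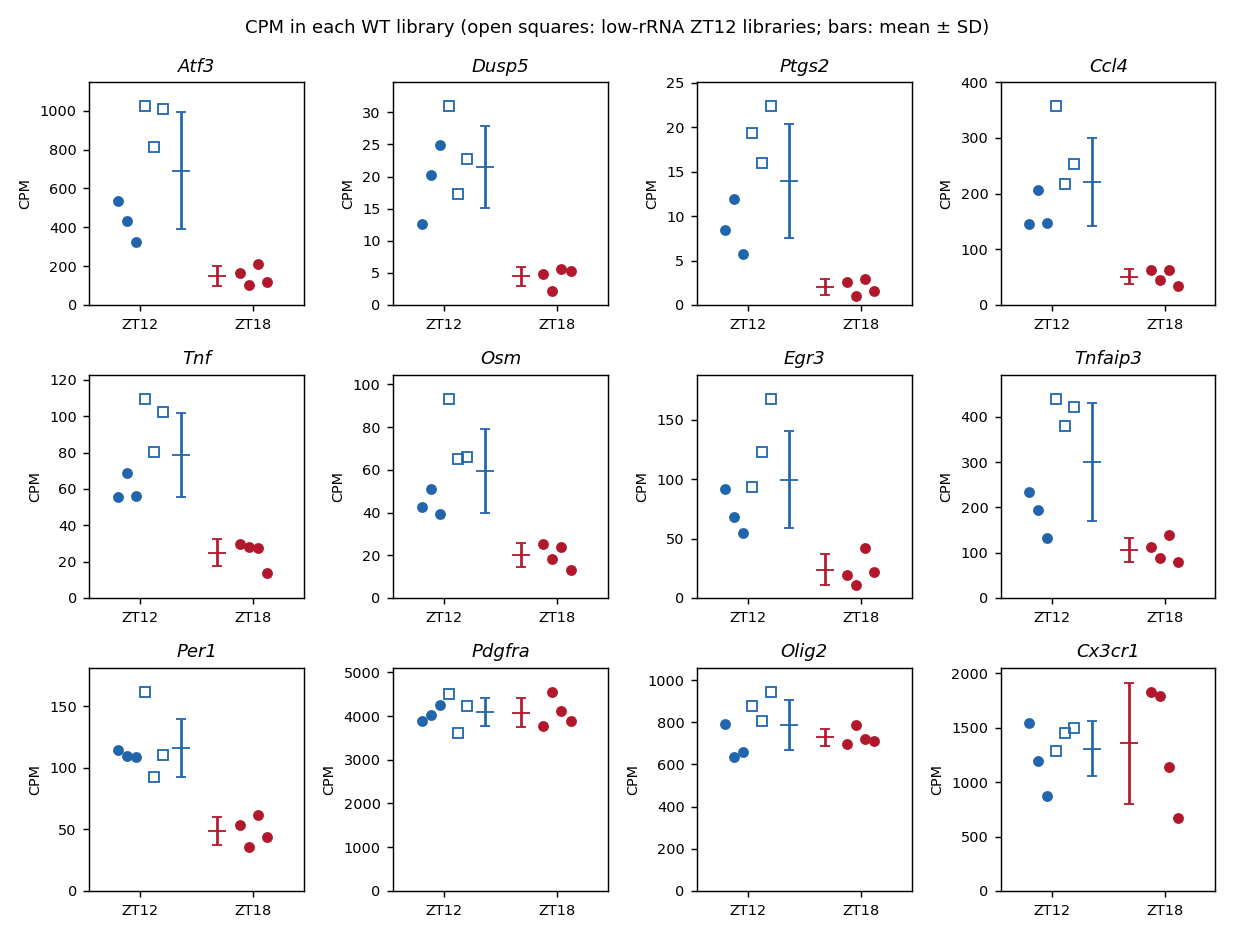
CPM of 12 genes in each WT library at ZT12 (blue, 6) and ZT18 (red, 4), with open squares for the low-rRNA ZT12 replicates and bars for mean ± SD. Atf3, Ptgs2, Tnf, Osm and Tnfaip3 are highest in the open squares and lower in the filled blue circles; Per1 and Dusp5 show less of this step, and Pdgfra, Olig2 and Cx3cr1 overlap between the times.

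Dual-specificity phosphatases dephosphorylate MAP kinases and are themselves induced by MAP kinase signalling. Of 10 tested, 3 were called and 8 had a negative fold change, against 0.272% and 51.3% of all genes. The list median was -0.35 on the log2 scale. Dusp5, a nuclear phosphatase of ERK, ranged from 12.6 to 30.9 CPM at ZT12 (median 21.5) and stood at 4.82, 2.24, 5.54 and 5.25 CPM at ZT18. The 4.79-fold fall, -2.26 ± 0.37 (SE) on the log2 scale, had an adjusted p of 0.00326 in edgeR's quasi-likelihood test. Its ZT12 replicates 1 to 3 averaged 19.2 CPM and replicates 4 to 6 averaged 23.7 CPM, so the low-rRNA libraries stood out less here than for Atf3, where these means were 430.4 and 949 CPM.

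Dusp2 ranged from 61.9 to 165 CPM at ZT12 (median 92.5) against 39, 25.3, 41.5 and 25.3 CPM at ZT18, a log2 fold change of -1.58 ± 0.29 (SE) with no overlap. Dusp1 ranged from 335 to 1019 CPM (median 729.7) against 339, 300.3, 315 and 221 CPM, a change of -1.21 ± 0.27 (SE). Here ZT18 replicate 1 lay just above the lowest ZT12 library. Dusp6, the cytoplasmic ERK phosphatase that OPCs hold at 295 CPM at ZT12 and 272 CPM at ZT18, had a log2 fold change of -0.12 and was not called.

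Promoter sequences from RefSeq (GRCm38.p6), 250 bases before to 50 bases after each start, were matched for 50 of the 62 called genes and for 13546 of all genes tested. The 7 motifs below were sought on both strands, and each count is a description. The E-box CACGTG, the site of BMAL1 and CLOCK among other factors, was in 11 of the 50 (22%) and in 9.34% of all. The cyclic AMP element TGACGTCA was in 4% against 2.91%, and the AP-1 site (TGAGTCA or TGACTCA) in 4% against 3.76%. The D-box (TTATGTAA or TTACGTAA) was in 0 of 50 against 0.716%, the heat shock element GAANNTTC in 2% against 6.05%, TTTGAA in 10% against 12.6% and CCAAT in 26% against 38%. The 250 bases before the start of 3 called genes are printed below because each holds an E-box. They were chosen after the matches were seen. Capitals mark the matches to the motifs above on either strand, and the bases are read 5′ to 3′ on the strand of the gene. The stretches are chr17:26508473-26508722 on the minus strand for Dusp1, chr2:127335909-127336158 on the plus strand for Dusp2 and chr10:67535249-67535498 on the plus strand for Egr2.
Dusp1: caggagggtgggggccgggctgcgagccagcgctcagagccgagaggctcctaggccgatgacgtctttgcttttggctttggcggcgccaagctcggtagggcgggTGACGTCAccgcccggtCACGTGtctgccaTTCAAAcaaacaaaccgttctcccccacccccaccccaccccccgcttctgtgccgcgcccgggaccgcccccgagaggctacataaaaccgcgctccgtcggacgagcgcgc
Dusp2: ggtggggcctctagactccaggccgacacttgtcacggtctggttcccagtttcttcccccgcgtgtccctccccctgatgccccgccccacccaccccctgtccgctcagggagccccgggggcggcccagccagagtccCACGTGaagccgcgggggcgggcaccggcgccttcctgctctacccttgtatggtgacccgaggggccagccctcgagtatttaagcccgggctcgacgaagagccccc
Egr2: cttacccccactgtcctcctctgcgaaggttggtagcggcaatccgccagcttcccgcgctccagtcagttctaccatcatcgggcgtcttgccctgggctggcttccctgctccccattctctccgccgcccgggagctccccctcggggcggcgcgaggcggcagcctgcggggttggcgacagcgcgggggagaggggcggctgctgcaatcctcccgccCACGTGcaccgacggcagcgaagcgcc
Dusp1 held a cyclic AMP element that began 143 bases before its start and an E-box that began 126 bases before it. The E-box of Egr2 began 27 bases before the start and that of Dusp2 109 bases before it.

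Several inflammatory ligands fell over the same interval. Of 18 cytokine and chemokine genes tested, 6 were called and all 18 had a negative fold change, against 0.272% and 51.3% of all genes. The list median was -1.26 on the log2 scale. When the low-rRNA libraries were left out, 13 were negative and 0 were called, with a median of -0.98. Ccl4 and Ccl3 encode chemokines that attract monocytes. Ccl4 ranged from 145 to 357 CPM at ZT12 (median 212) and stood at 63.2, 44.6, 62.3 and 34.2 CPM at ZT18, a log2 fold change of -2.11 ± 0.35 (SE). Ccl3 ranged from 267 to 561 CPM (median 452) against 178, 136, 179 and 77.4 CPM, a change of -1.60 ± 0.28 (SE). No library of either gene overlapped between the times, and the adjusted p-values in edgeR's quasi-likelihood test were 0.00326 and 0.00328.

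Tnf, the ligand of the TNF receptors, ranged from 55.3 to 109 CPM at ZT12 (median 74.5) and stood at 29.5, 28.1, 27.7 and 13.8 CPM at ZT18. Il1a, an interleukin-1 receptor ligand, ranged from 65.2 to 159.7 CPM (median 87.4) against 29.5, 32, 29.1 and 16.3 CPM. Their log2 fold changes were -1.67 ± 0.29 and -1.87 ± 0.34 (SE), without overlap, and ZT18 replicate 4 was the lowest library for both. Cxcl2, a chemokine for neutrophils, rested more on the low-rRNA libraries: they held 57.6 to 72.4 CPM, the other ZT12 libraries 17.5 to 24.8 CPM and ZT18 7.97 to 12.3 CPM. Csf1, the growth factor of macrophages and microglia, was the sixth called ligand on the list, at -1.58 on the log2 scale, named here after its value was seen. Osm, a cytokine of the interleukin-6 family, ranged from 39.4 to 93.1 CPM (median 58.0) against 25.5, 18.3, 23.9 and 13.2 CPM, a change of -1.56 ± 0.26 (SE). Ccrl2, an atypical chemoattractant receptor, changed by -2.21 ± 0.42 (SE).

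Members that missed the threshold included Il1b, which held 45.7 CPM in ZT12 replicate 4, 3.49 CPM in ZT12 replicate 1 and 1.21 to 3.72 CPM at ZT18. Its log2 fold change of -2.89 had an adjusted p of 0.302 in edgeR's quasi-likelihood test. Interferon-stimulated genes did not share the direction of the other inflammatory genes. Of 18 tested, 0 were called and 6 had a negative fold change, with a median of 0.14 on the log2 scale.

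Many of these ligands are known from activated microglia, and the cells were purified by panning and not by sorting. The microglia and macrophage marker list summed to 7760 to 14000 CPM at ZT12 and 5920 to 16300 CPM at ZT18. None of its 20 genes was called, 13 had a positive fold change, and the median was 0.04 on the log2 scale. Cx3cr1 stood at 1829, 1790.0, 1139 and 673 CPM at ZT18, so replicate 4, the lowest library for Tnf and Il1a, was also the lowest for this marker. With the level of the microglial markers as a covariate, 97 genes were called, 95 lower, and all 62 were among them. In bulk RNA a smaller share of a cell type and less RNA per cell of that type cannot be told apart, and which cells held these transcripts was not tested.

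The NF-kB list, made of subunits, IkB proteins, TNFAIP3 and other genes of the pathway such as Icam1 and Birc3, had 15 genes tested. All 15 had a negative fold change and 4 were called, against 51.3% and 0.272% of all genes. The list median was -0.66 on the log2 scale. Without the low-rRNA libraries all 15 were still negative, 0 were called and the median was -0.42. Tnfaip3, which encodes the ubiquitin-editing inhibitor A20, ranged from 131 to 439 CPM at ZT12 (median 306) and stood at 113, 88.9, 139.5 and 80.3 CPM at ZT18. The lowest ZT12 library, replicate 3, lay inside the ZT18 range. Nfkbid, a nuclear IkB protein, ranged from 62.9 to 185 CPM (median 127) against 43.7, 30.7, 46.1 and 23.7 CPM, a log2 fold change of -1.72 ± 0.32 (SE). Rel, a subunit with a transactivation domain, changed by -1.37 ± 0.30 and Nfkbiz, another nuclear IkB protein, by -1.10 ± 0.25 (SE). Nfkbiz had an adjusted p of 0.0441 in edgeR's quasi-likelihood test and lost its call in 22 of 38 fits with 1 library removed. Rela and Nfkb1, the subunits of the common dimer, stood at -0.38 and -0.21 on the log2 scale and were not called.

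Several called genes of large change belonged to none of these lists. Ptgs2, which encodes the inducible cyclooxygenase of prostaglandin synthesis, had the largest fall of the called genes. It ranged from 5.77 to 22.3 CPM at ZT12 (median 13.9) and stood at 2.62, 1.02, 2.95 and 1.56 CPM at ZT18, a 6.85-fold fall, -2.78 ± 0.48 (SE) on the log2 scale. Edn1, the precursor of the vasoactive peptide endothelin-1, ranged from 3.30 to 11.5 CPM (median 6.37) against 1.52, 1.18, 1.55 and 0.945 CPM. Gem, a small GTPase that lowers calcium channel activity, ranged from 68.8 to 201 CPM (median 118) against 34.7, 24.8, 49.9 and 26.3 CPM. None of these 3 genes overlapped between the times.

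Apold1, an immediate early gene first described in endothelial cells, changed by -1.71 ± 0.36 (SE), with ZT12 replicate 1 at 5.75 CPM inside the ZT18 range. Csrnp1, a nuclear protein induced by AXIN1, ranged from 36.8 to 90.4 CPM at ZT12 (median 62.0) against 23.4, 22.9, 24.7 and 16.6 CPM, a change of -1.54 ± 0.26 (SE). Iffo2 and Trim8 show that small changes were also called where libraries agreed closely. Iffo2 changed by -0.66 ± 0.12 and Trim8, an E3 ubiquitin ligase gene, by -0.52 ± 0.11 on the log2 scale (SE). Of the 62 called genes, 28 were on at least 1 of the 44 lists and 34 on none.

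Among 24 core clock genes tested, 1 was called, 15 had a negative fold change and the median was -0.05 on the log2 scale. Per1 ranged from 92.6 to 161 CPM at ZT12 (median 109.8) and stood at 53.6, 35.9, 61.7 and 44.0 CPM at ZT18, with no overlap. The 2.38-fold fall, -1.25 ± 0.28 (SE) on the log2 scale, had an adjusted p of 0.0312 in edgeR's quasi-likelihood test. Its ZT12 mean was 111 CPM in replicates 1 to 3 and 121 CPM in replicates 4 to 6. Without the low-rRNA libraries its change was -1.18 on the log2 scale. Per1 kept its call in 9 of 17 other settings and in 32 of 38 fits with 1 library removed. Only 10 of these 38 fits removed a library of the groups compared.

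Ciart, a repressor of BMAL1 and CLOCK, ranged from 12.5 to 39.1 CPM at ZT12 (median 15.8) and stood at 7.02, 5.41, 5.90 and 5.44 CPM at ZT18. Its groups did not overlap, but with a log2 fold change of -1.78 ± 0.43 (SE) its adjusted p was 0.0596 in edgeR's quasi-likelihood test. Nfil3, the repressor of D-box genes, ranged from 18.8 to 38.4 CPM (median 25.7) against 12.0, 13.4, 12.8 and 12.0 CPM, also without overlap, with an adjusted p of 0.132 in the same test. Nr1d1, which encodes the repressor REV-ERBα, ranged from 22.6 to 35.1 CPM (median 24.7) against 16.9, 17.7, 20.1 and 19.4 CPM, again without overlap, at an adjusted p of 0.768 in the same test. Thus 4 of the 24 clock genes were separated between the times, each lower at ZT18, against 1.13% of all genes, and 1 passed the test. The number called moved with the setting: it was 0 with library size alone and 3 with no filter on low counts.

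The other Per genes did not follow Per1. Per2 averaged 31.3 ± 3.46 CPM at ZT12 and 31.4 ± 5.24 CPM at ZT18, a log2 fold change of 0.01 ± 0.16 (SE). Per3 averaged 42.2 ± 6.61 CPM and 51.5 ± 6.15 CPM, a change of 0.29 ± 0.16 (SE). Of the activators, Arntl, the mouse symbol of Bmal1, averaged 22.8 ± 2.68 CPM and 25.6 ± 4.19 CPM, and Clock and Npas2 changed by 0.18 ± 0.12 and 0.30 ± 0.34 on the log2 scale (SE). Cry1 (-0.09), Cry2 (-0.06), Nr1d2 (0.00), Rora (0.06) and Rorb (0.08) lay within 0.1 of 0 on the log2 scale. Of the output factors, Dbp, Tef and Hlf changed by -0.21, -0.02 and -0.15. Bhlhe41 and Bhlhe40, repressors that compete at E-boxes, changed by -0.56 and -0.44. The kinases Csnk1d and Csnk1e stood at -0.05 and -0.13. Fbxl21 was scarce, at 1.06 CPM at ZT12, with a change of 0.70. None of the genes in this paragraph was called, and a p above the threshold does not show that a level stayed the same.

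**Figure D3:**
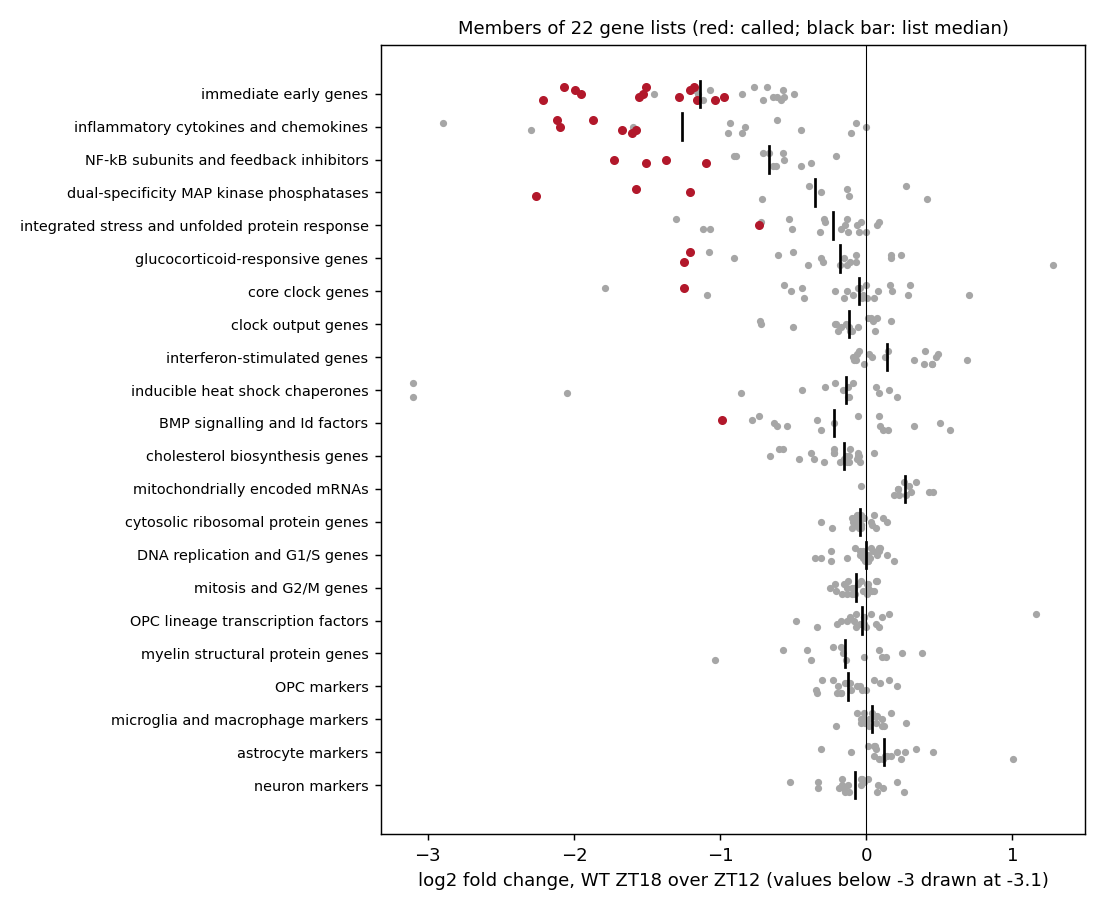
Log2 fold change of ZT18 over ZT12 for the members of 22 of the 44 gene lists, 1 point per gene, with red points for called genes and a black bar at each list's median; values below -3 are drawn at the left edge. The immediate early, cytokine and NF-kB lists lie to the left of 0, with medians of -1.13, -1.26 and -0.66, and the OPC, myelin, ribosomal and cell cycle lists lie close to 0.

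Few stress genes were called. Of 20 genes of the integrated stress and unfolded protein responses, 18 had a negative fold change and 1 was called, with a median of -0.23. With the low-rRNA libraries left out, 11 were negative and the median was -0.02. Atf4, the transcription factor at the centre of the integrated stress response, ranged from 251 to 409.6 CPM at ZT12 (median 308) against 217, 173, 222 and 169.9 CPM, a change of -0.73 ± 0.16 (SE). In 6 of the 20 every ZT18 library lay below every ZT12 library, against 1.13% of all genes. The list ran from -1.30 to 0.09 on the log2 scale. Asns and Slc7a11, amino acid targets of Atf4 picked out after their values were seen, stood at -0.14 and -0.05. Of 19 glucocorticoid-responsive genes, 2 were called, Per1 and Dusp1, which are also on other lists. Fkbp5, a common index of glucocorticoid action, stood at -0.13. Of 17 genes of BMP signalling, which holds OPCs back from maturing, 1 was called: Smad7, the inhibitory SMAD, changed by -0.98 ± 0.22 (SE).

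Of 16 inducible heat shock chaperones, 0 were called and 12 had a negative fold change, against 51.3% of all genes. In 2 of the 16 every ZT18 library lay below every ZT12 library, against 1.13% of all genes. Hspa1b, an inducible HSP70 gene, stood at 1.48, 182, 142, 304, 3.52 and 2.74 CPM in ZT12 replicates 1 to 6 and at 1.52, 0.813, 1.87 and 0.554 CPM at ZT18. Hspa1a, its near-identical neighbour, stood at 11.4, 105, 95.5, 163, 11.5 and 14.4 CPM against 4.29, 3.82, 3.13 and 2.74 CPM. Hspa1a did not overlap between the times and Hspa1b did. Within ZT12, replicates 2, 3 and 4 were far above the others for both genes, so the high set was not the low-rRNA set. The log2 fold changes of -6.48 and -4.26 had adjusted p-values of 0.227 and 0.226 in edgeR's quasi-likelihood test. Reads of these copies may be split between them, as the handling of shared reads is not given in the sources used here. Nr4a3 and Il1b had the same high libraries.

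Genes that define OPCs and their cycle differed little. Of 20 OPC markers, 0 were called, the median was -0.12 and the range ran from -0.34 to 0.21 on the log2 scale, at summed levels of 21200 to 26200 CPM at ZT12 and 20400 to 23700 CPM at ZT18. Olig2, which specifies the lineage, averaged 786 ± 119 CPM and 728 ± 39.8 CPM. Of 24 DNA replication genes and 24 mitosis genes, 0 were called, with medians of 0.00 and -0.07. Of 14 myelin genes, 0 were called, and Mbp, which encodes a main myelin protein, stood at -0.17 on the log2 scale. Of 24 cholesterol synthesis genes, 23 had a negative fold change and 0 were called, with a median of -0.15. Of 12 mitochondrially encoded mRNAs, 11 had a positive fold change and 0 were called, with a median of 0.27. Their share of all counts was 1.13 to 1.36% in the low-rRNA ZT12 libraries and 1.58 to 2.05% in those at ZT18.

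Markers of other cells were searched in the same way, and 0 were called on any of the 10 marker lists. Astrocyte markers had a positive fold change in 16 of 18 genes with a median of 0.12, and without the low-rRNA libraries 9 of 18 were negative. Gfap, the astrocyte filament gene, averaged 28 ± 14.3 CPM at ZT12 and 56.2 ± 22.7 CPM at ZT18. Mural cell and fibroblast markers had a negative fold change in 11 of 12 genes with a median of -0.57, and in 7 of 12 with a median of -0.31 without the low-rRNA libraries. Col1a1, a fibroblast collagen gene, stood at 441 and 136 CPM in ZT12 replicates 5 and 6 and at 46.7 to 64.6 CPM in the other 8 libraries. Endothelial markers summed to 63.4 to 123 CPM at ZT12 and 80.8 to 131 CPM at ZT18. This list ran from -0.35 to 0.80 on the log2 scale, with medians of 0.19 and, without the low-rRNA libraries, 0.03. Edn1 and Apold1, both called lower, are known from endothelial cells. Whether the share of endothelial cells changed was not tested.

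The share of ribosomal RNA moved with the level of the called genes inside the ZT12 group. For 61 of the 62, the mean of the low-rRNA replicates 4 to 6 lay above that of replicates 1 to 3, and for 42 every one of the former lay above every one of the latter. Over all genes these shares were 50.5% and 11.6%. High levels at ZT12 also favoured a call, so the counts for the 62 are a description. Left with ZT12 replicates 1 to 3 and the 4 ZT18 libraries, the fit without all 8 low-rRNA libraries called 0 of 22965 genes. These ZT12 replicates held no Y-linked RNA and every ZT18 library did, so sex and time cannot be told apart in that fit. There 702 genes had an unadjusted p below 0.05 in edgeR's quasi-likelihood test, and the smallest adjusted p of the 62 genes was 0.0948. All 62 kept a negative fold change, with a median of -0.94 on the log2 scale and a median ratio of 71.9% to the value with all libraries. ZT18 lay below replicates 1 to 3 in every library for 48 of the 62, against 2.85% of all genes. The 62 were called with these same libraries in the fit, so the kept direction and this count are a description. The low-rRNA set of WT held libraries of ZT12 only, so it gave no within-set value. No source used here says what set these libraries apart.

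The step between the sets differed from gene to gene. Dusp5 changed by -2.26 with all libraries and by -2.10 without the low-rRNA ones, Nr4a1 by -1.53 and -1.47, and Per1 by -1.25 and -1.18. Atf3 changed by -2.21 and -1.53, Cxcl2 by -2.10 and -1.05, and Nfkbiz by -1.10 and -0.42. Leaving out 1 library at a time, the count of called genes ran from 10, without ZT18 replicate 4, to 87, without ZT12 replicate 3. It was 16 without ZT18 replicate 2, 27 without ZT12 replicate 4, 28 without replicate 6 and 37 without replicate 5. Without ZT18 replicates 1 or 3 it was 32 or 39. ZT18 replicates 4 and 2, whose removal gave the lowest counts, were the libraries with Y-linked RNA and almost no Xist. They also had the lowest mean log2 CPM of the called genes at ZT18, 4.69 and 4.76, against 5.16 and 5.23 in replicates 1 and 3. Atf3, Dusp5, Ccl4, Csrnp1, Osm, Maff, Ptgs2 and Egr3 were called in all 38 of these fits.

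**Figure D4:**
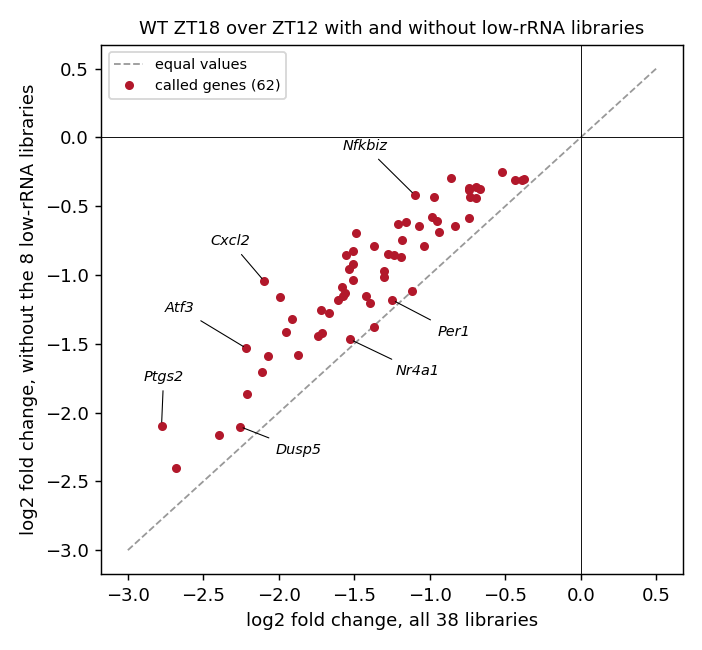
Log2 fold change of ZT18 over ZT12 for the 62 called genes, with all 38 libraries on the x axis and without the 8 low-rRNA libraries on the y axis. All 62 points lie below 0 on both axes and most lie above the dashed line of equal values; Per1, Nr4a1 and Dusp5 lie near the line, and Cxcl2, Atf3 and Nfkbiz lie farther from it.

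Over the 4 WT times, ZT6 had the highest mean level for 58 of the 62 called genes, against 26.6% of all genes. ZT18 had the lowest for 60, against 22.2% of all genes, which the choice of genes lower at ZT18 than at ZT12 favours. Atf3 averaged 243 ± 51.2 CPM at ZT0 (n = 4), 1508 ± 211 at ZT6 (n = 5), 689.9 ± 301 at ZT12 and 149 ± 49.6 at ZT18. Per1 averaged 87.9 ± 24.5, 252 ± 64.9, 116 ± 23.5 and 48.8 ± 11.2 CPM at the same times. Ciart averaged 64.4 ± 6.08 CPM at ZT6 and 9.52 ± 1.26 CPM at ZT0. Egr4, Jund, Trim8 and Tada3 had their highest mean at ZT12, with Egr4 at 5.11 ± 0.586 CPM at ZT6 and 6.25 ± 2.93 CPM at ZT12. These levels are a description of 4 times, with no test of a rhythm.

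In KO cells most of these genes had a positive fold change over the same interval. There 2073 genes were higher at ZT18 (9.09%) and 1486 lower (6.52%), but all 4 KO libraries at ZT18 were low-rRNA libraries and none at ZT12 was, so time and library set cannot be told apart in KO. The split of higher and lower calls also moved with the scaling: RLE size factors gave 1679 and 1843, library size alone 1536 and 1945, and DESeq2 2013 and 2344. Of the 62 genes, 52 had a positive fold change in KO, 21 were called higher and 2 lower, with a median of 0.51 on the log2 scale. Ccl4 averaged 98.1 ± 45.7 CPM in KO at ZT12 and 231 ± 30.5 CPM at ZT18 (n = 4 each), and Osm 28.1 ± 6.05 and 58.6 ± 9.04 CPM. Arntl averaged 22 ± 1.18 and 19.2 ± 1.5 CPM there. A count over the whole gene does not show the loss of the DNA-binding part, so it does not check the KO labels.

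The difference between the genotypes was tested by the interaction of genotype and time, in which 1941 genes were more positive in KO (8.51%) and 1308 more negative (5.74%). RLE size factors gave 1622 and 1602, library size alone 1395 and 1808, and DESeq2 1870 and 1971. Of the 62 genes, 58 were more positive in KO. They were chosen for a fall in WT, which enters this difference with the opposite sign, so the count is a description and no support for a difference. The smallest p-values went to Mark4, Map7d1, Cebpb, Trim8 and Gpr137, with differences of 0.99 to 3.60 on the log2 scale. Cebpb, a transcription factor of inflammatory responses, averaged 86.8 ± 35.1 CPM at ZT12 and 35.3 ± 8.03 CPM at ZT18 in WT, and 25.5 ± 12.6 and 126 ± 31.1 CPM in KO. In WT it was not called, with an adjusted p of 0.0777 in edgeR's quasi-likelihood test. Per1 differed by 1.60 ± 0.40 (SE; adjusted p = 0.00682 in edgeR's quasi-likelihood test). Without the low-rRNA libraries there is no KO ZT18 group and no such test. With the rRNA share as a covariate, 461 genes were called for the difference and 1 for the WT change.

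**Figure D5:**
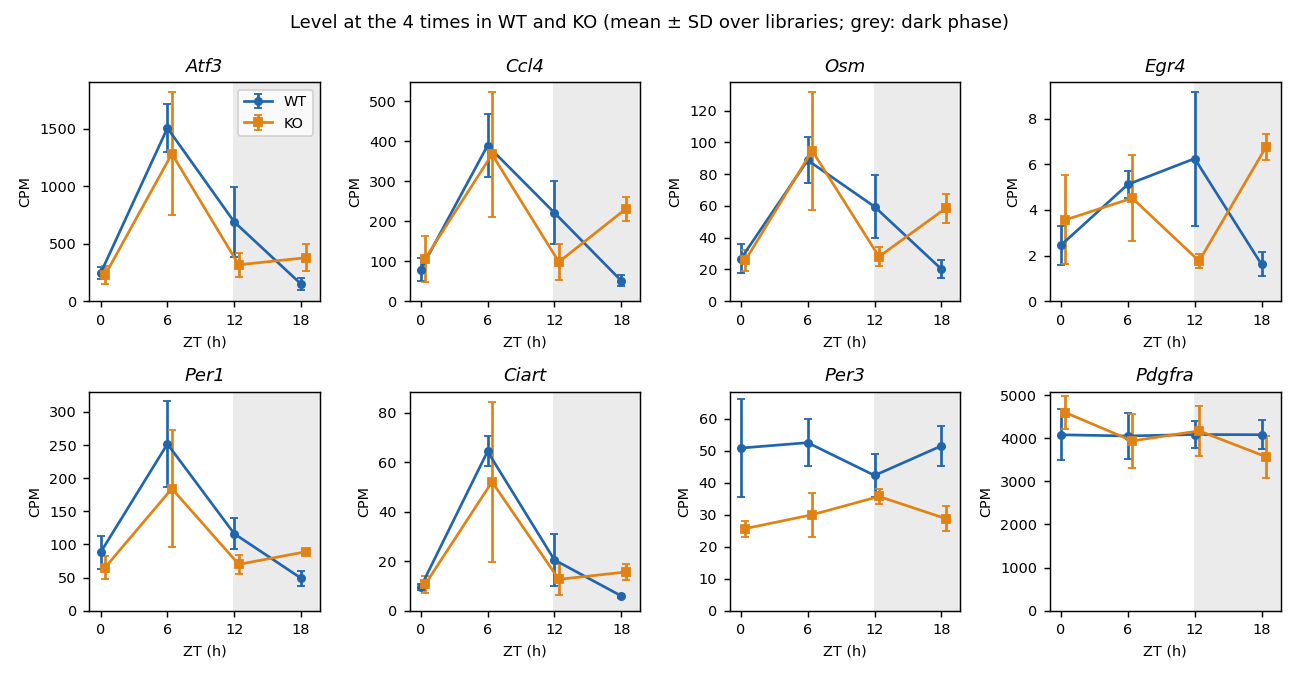
Mean CPM ± SD of 8 genes at the 4 times in WT (blue circles) and KO (orange squares), with the dark phase in grey. Atf3, Ccl4, Osm, Per1 and Ciart peak at ZT6 in both genotypes and are lowest at ZT18 in WT, while Ccl4, Osm and Egr4 are higher at ZT18 than at ZT12 in KO, where all ZT18 libraries were low-rRNA ones; Pdgfra is level in WT, with means of 4086 CPM at ZT12 and 4082 CPM at ZT18.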

How the data were processed

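Polyadenylated RNA of immunopanned OPCs was sequenced in 38 libraries, 10 of them WT at ZT12 or ZT18. Reads were aligned to mm10 and counted per gene with HISAT2 2.0.5 and featureCounts 1.5.0-p3, per the submitters' processing notes, and the authors deposited raw counts. How strand and shared reads were handled is not stated in those notes. All 38 libraries were fitted together with edgeR 4.0.16 (R 4.3.3; TMM scaling, filterByExpr, quasi-likelihood test, 1 mean per genotype and time), with Benjamini-Hochberg adjustment over 22798 genes. CPM values printed are TMM-scaled. The fit was tested on simulated data. DESeq2 1.42.0 and limma 3.58.1 served as alternatives, with other scalings, filters, covariates and left-out libraries. All 76 pairs of libraries within a group differed by more than sampling noise (chi-square per degree of freedom at least 12.56).

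Genes, lists and members were chosen with earlier results of these data known. Named were the 15 called genes of largest change (mean log2 CPM above 1), the 10 of smallest p, the top 4 called per list and the 5 of smallest p for the difference; others were picked after their values were seen. Some genes are not reported here. The limit of 0.4% for a low rRNA share was set after the shares were seen. The labels call the libraries biological replicates, each a pool of 2 mice.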

Additional observations from a re-analysis of the deposited data

Results flagged for a closer look

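In 5 of 114 groups of 4 to 6 libraries tested, 1 library lay far from the others by Dixon's criterion, which chance meets in about 1 of 20 groups. At ZT12, replicate 4 was high for Per1 (161 CPM, the others 92.6 to 114) and for Cebpb (155 CPM, the others 59.4 to 86.7), and replicate 1 was high for Tef (157 CPM, the others 145 to 148). At ZT18, Tnf was low in replicate 4 (13.8 CPM, the others 27.7 to 29.5) and Mark4 in replicate 2 (66.5 CPM, the others 76.3 to 77.2).

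The change from ZT12 to ZT18 differed between KO and WT for 24 of 37 genes examined, by the interaction of genotype and time in edgeR's quasi-likelihood test, against 8.51% of all genes more positive in KO and 5.74% more negative. Many of the 37 were chosen for a fall in WT, which enters the difference with the opposite sign, and 5 for the smallest p of this difference, so their number is a description. The differences, as log2 fold change in KO minus that in WT, were largest for Cebpb (3.60), Ccl4 (3.35), Dusp5 (3.13), Ptgs2 (2.90), Tnf (2.67), Osm (2.62), Maff (2.59), Csrnp1 (2.49), Atf3 (2.47) and Ccl3 (2.44). Smaller differences were those of Map7d1 (1.30), Trim8 (1.24), Iffo2 (1.07), Mark4 (1.02) and Gpr137 (0.99). Among clock genes they were 2.08 for Ciart, 1.60 for Per1, 1.49 for Nfil3, 1.49 for Bhlhe41, 1.33 for Dbp, 1.32 for Bhlhe40, 0.45 for Csnk1e, 0.30 for Csnk1d and -0.71 for Clock. All KO libraries at ZT18 had a low rRNA share, so genotype and library set cannot be told apart in these differences.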

How the results depend on the processing

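The count of 62 called genes in WT, all lower, became 55 with RLE scaling (55 shared with the 62), 59 with library size alone (56 shared, 1 higher), 92 with no filter on low counts (60 shared), 64 with a filter of 1 CPM in 4 libraries (62 shared, 1 higher), 45 with a robust prior (45 shared), 80 with WT libraries alone (52 shared) and 43 without the single-sex libraries (28 shared, 8 higher). Without the single-sex libraries, ZT12 kept only the low-rRNA replicates 5 and 6 and ZT18 only replicates 1 and 3. Library set and time therefore cannot be told apart in that fit. The count was 106 with DESeq2 (4 higher), 28 with limma-voom and 37 with only the groups compared. It was 32 with Xist and Y-linked covariates and 97 with the microglial marker covariate. It was 0 without the 8 low-rRNA libraries and 1, Dusp5, with the rRNA share as a covariate. In 2 alternatives chosen after seeing the data, it was 4 without ZT12 replicates 4 to 6 and 192 (42 higher) without ZT12 replicates 1 to 3. The 4 were the Y-linked genes Eif2s3y, Ddx3y, Kdm5d and Uty, all higher. For KO, the count of 3559 became 1166 with the rRNA share as a covariate. For the difference between genotypes, 3249 became 461 with that covariate, 1769 without the single-sex libraries and 1116 without ZT12 replicates 4 to 6. The cause of these shifts was not tested. Leaving out 1 library at a time gave 10 to 87 calls in WT, 1877 to 3918 in KO and 2195 to 3584 for the difference. The lowest KO counts were 1877 without KO ZT12 replicate 1 and 2239 without KO ZT18 replicate 4. The 29 named genes kept their direction in all 1595 values computed, and 86 of 1102 calls were lost on leaving out 1 library. Most of the fits with 1 library left out kept both compared WT groups whole, which lowers that share.

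Replicate numbers did not pair the samples: same-numbered libraries correlated at -0.172 to 0.194, and 1 of 4 correlated best with its own number. With a replicate block, 80 genes were called in WT, 50 of them among the 62, 3967 in KO and 3021 for the difference. Depth differed between groups: the low-rRNA ZT12 libraries of WT were deeper than every WT ZT18 library, and every KO library at ZT18 was deeper than every one at ZT12. Its part in the results was not tested.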
